A study of Mus musculus with 20 samples.

Results

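The 32 genes described here are interferon-stimulated genes, taken as a list of gene symbols and not selected by a threshold on these values. The list was nevertheless chosen with earlier results of these data known. All 32 were found among the 24826 rows of the expression table, and each was followed through all 20 libraries. The libraries are bulk RNA-seq of 10 tissues (intestine, uterus, ovary, liver, kidney, spleen, thymus, lung, heart and brain) of wild type mice. Each tissue has 1 control library, whose label reads "sasame oil", and 1 library of an animal or animals given DHEA. DHEA, dehydroepiandrosterone, is an adrenal steroid that tissues convert to androgens and oestrogens. The dose, duration, age, strain, number of mice and sharing of animals between tissues are not given by the labels, nor is the segment of intestine.

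Interferons are secreted signals that cells release when they detect viral or other foreign nucleic acid. Type I and type III interferons bind receptors that activate the kinases JAK1 and TYK2, and these phosphorylate STAT2, which joins IRF9 in the factor ISGF3. ISGF3 binds a short element rich in GAAA, the interferon-stimulated response element, upstream of many genes whose products block viral replication. Epithelia such as that of the gut are known to keep a low level of this programme running in the absence of infection. The 32 genes cover the ubiquitin-like modifier ISG15 and its enzymes, IFIT proteins, OAS enzymes, GTPases, nucleic acid sensors, transcription factors and restriction factors.

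Values are FPKM, fragments scaled to gene length and library size, and the reads behind each value were recovered from the table. The libraries held 13206872 to 20702129 reads. The defining markers of each tissue were highest in that tissue's own 2 libraries in 10 of 10 tissues. A gene was counted as higher or lower in the DHEA library when log2((DHEA + 1)/(control + 1)) was at least 1 in size, a 2-fold difference, and the mean of the pair was at least 5 FPKM. Folds are ratios of FPKM with an exact (Clopper-Pearson) 95% interval that covers counting error only. With 1 library per tissue and treatment there is no replicate check within a tissue, so no p-value is given there. In bulk tissue, fewer cells of a type and less RNA per cell cannot be told apart.

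The upstream sequence of some of the genes shows the element that ISGF3 is known to bind. RefSeq starts were found for 23 of the 32 genes (26 starts), with the mouse build GRCm38.p6. The motif of GAAA, any 2 bases and GAAA, searched on both strands in the 250 bases before the start, was present in 11 of the 23 genes (47.8%), against 936 of 27025 genes (3.46%). The related STAT motif TTCNNNGAA, which reads the same on both strands, was present in 5 of 23 (21.7%, against 8.13% of all genes), and 3 genes held both. The windows below, 5′ to 3′ along the gene's strand, are shown for the 6 genes with the largest intestinal difference among those that hold this motif outside an annotated exon. Capitals mark the motif or its reverse complement, and overlapping matches run together. Xaf1, without the motif, is shown for contrast as its whole 250 bases.
Ifit1: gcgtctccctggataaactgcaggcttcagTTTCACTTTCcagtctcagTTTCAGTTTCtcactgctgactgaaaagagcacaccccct
Isg15: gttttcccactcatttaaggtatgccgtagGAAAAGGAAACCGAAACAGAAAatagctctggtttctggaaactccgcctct
Ifit3: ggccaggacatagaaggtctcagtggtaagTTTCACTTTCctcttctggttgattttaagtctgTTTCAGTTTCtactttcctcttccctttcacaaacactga
Rsad2: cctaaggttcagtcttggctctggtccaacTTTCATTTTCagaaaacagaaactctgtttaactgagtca
Bst2: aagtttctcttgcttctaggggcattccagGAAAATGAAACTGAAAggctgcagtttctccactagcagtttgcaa
Oas3: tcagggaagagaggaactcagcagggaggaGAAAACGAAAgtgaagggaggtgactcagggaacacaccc
Xaf1: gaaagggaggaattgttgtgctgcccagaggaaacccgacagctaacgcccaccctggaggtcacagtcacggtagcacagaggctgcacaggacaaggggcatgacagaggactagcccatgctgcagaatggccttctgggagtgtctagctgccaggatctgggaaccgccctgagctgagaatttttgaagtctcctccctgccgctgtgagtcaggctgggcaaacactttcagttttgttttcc
The Isg15 window (chr4:156200845-156200926, minus strand) holds 3 overlapping matches, 57 bases from the start at the nearest. The Ifit1 window (chr19:34640755-34640843, plus strand) and the Ifit3 window (chr19:34583343-34583446, plus strand) each hold 2 separate matches in reverse orientation. Rsad2 (chr12:26456533-26456602, minus strand) and Oas3 (chr5:120777695-120777764, minus strand) hold 1 match each, and Bst2 (chr8:71537557-71537632, minus strand) holds 2 that overlap. The Xaf1 window is chr11:72301379-72301628, plus strand. The median log2 ratio of DHEA to control in intestine was -1.16 for genes with the motif and -0.995 for genes without it. In uterus the medians were 0.36 and 0.42. These medians cover the 23 genes with a start. Usp18, Oas2, Mx1, Mx2, Dhx58, Zbp1, Rtp4, Ifi27 and Parp14 had none found and are left out. A match describes these letters only and shows no binding.

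In the intestine, interferon-stimulated genes were lower in the DHEA library across nearly every class. Of 27 genes at 5 FPKM or more, 16 were at least 2-fold lower and 0 were higher. Over all 6189 genes at that level, 3.38% were lower and 11.0% were higher. The median log2 ratio of the 32 genes was -1.08, against 0.22 for all genes. Of the 32 ratios 29 were negative, against 3814 of 11368 among all genes. The 16 folds lay between 2.17 and 3.88, and 13 of the 16 genes remained when each library was scaled to the same FPKM sum. The sum of the 32 values was 1369 FPKM in the control library and 622 FPKM in the DHEA library.

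**Figure D1:**
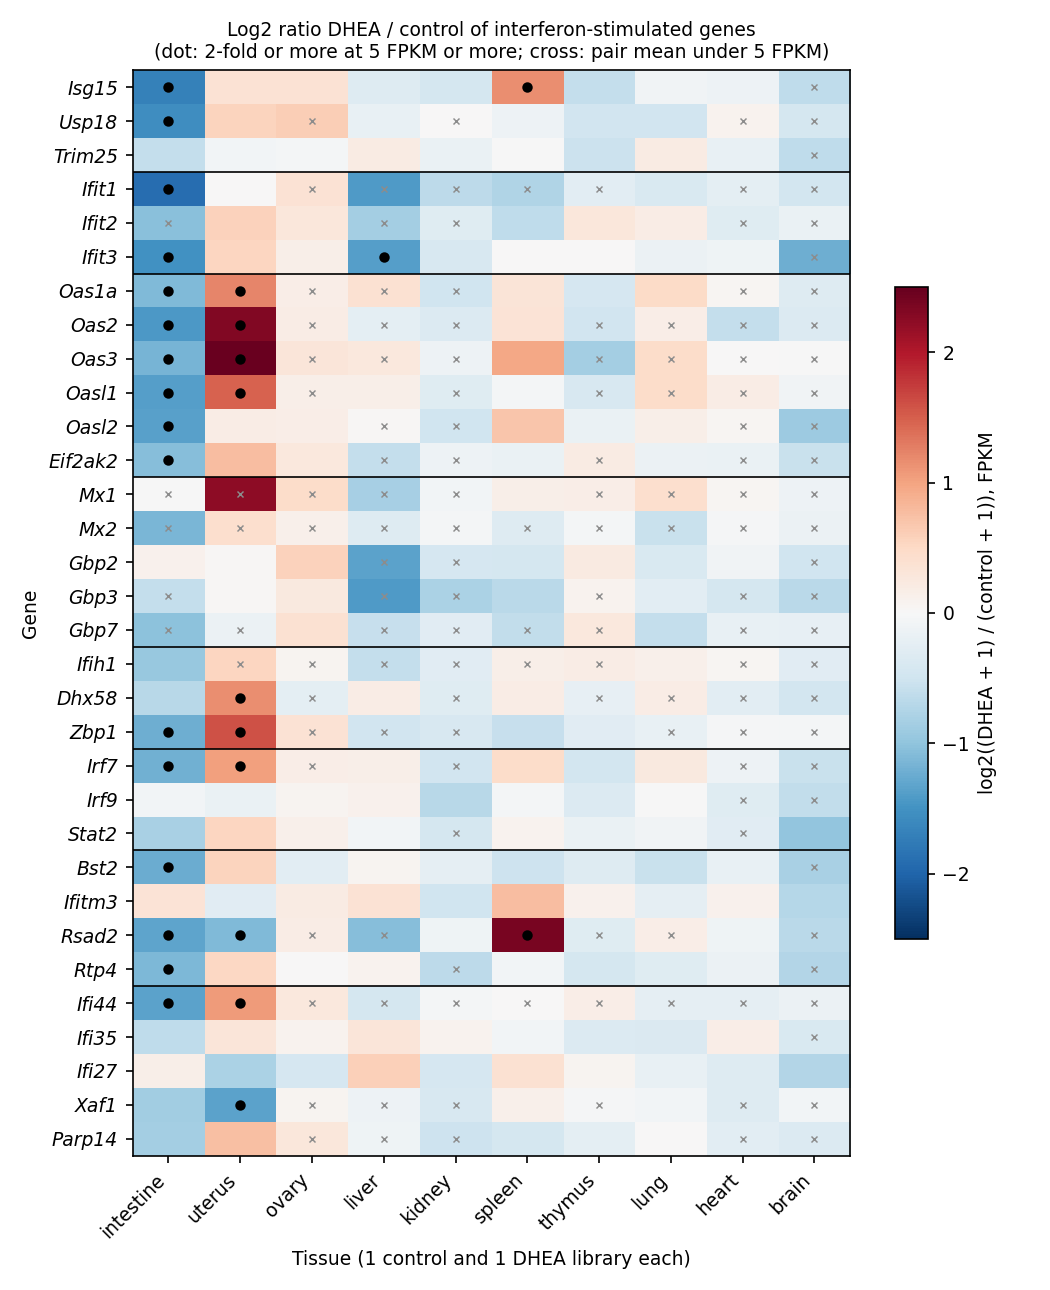
Log2 ratio of DHEA to control for the 32 genes (rows, grouped by role) in the 10 tissues (columns), with a pseudocount of 1 FPKM. Black dots mark the 29 combinations at 2-fold or more and 5 FPKM or more, of which 16 lie in the intestine column and 10 in the uterus column, and crosses mark pair means under 5 FPKM.

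Isg15 encodes a ubiquitin-like protein that is attached to other proteins in infected cells. Its level over the 10 control libraries ran from 5.31 FPKM in brain through a median of 28.4 to 348 FPKM in intestine, and over the DHEA libraries from 3.08 in brain through 24.1 to 128 in spleen. The intestine control library thus stood above all other 19 libraries, and the intestine DHEA library was at 107 FPKM, 3.25-fold lower (95% interval 3.03 to 3.48; 3658 against 1012 reads). Usp18 encodes the protease that removes ISG15 and also restrains the interferon receptor. It was at 28.3 FPKM in control and 9.01 FPKM in DHEA, 3.14-fold lower (2.78 to 3.55). Trim25, a ubiquitin ligase that acts on the RNA sensor RIG-I, differed less, from 42.2 to 27.4 FPKM, 1.54-fold lower (1.46 to 1.63).

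The IFIT proteins bind viral RNA with foreign ends and keep it from being translated. Ifit1 had the largest intestinal difference of the 32 genes, 83.7 FPKM in control and 21.6 FPKM in DHEA, 3.88-fold lower (3.59 to 4.20; 3328 against 770 reads). Ifit1 in the other 9 control libraries was at 9.98 FPKM or less, so the intestine control library lay far above them, and the intestine DHEA library was still the highest of the 10 DHEA libraries. Ifit3 was at 42.4 and 14.2 FPKM, 2.995-fold lower (2.65 to 3.40). Ifit2 was at 5.33 and 2.08 FPKM, a pair mean under 5, and its ratio was the lowest of the 10 tissues. Ifit1 and Ifit3 have close copies (Ifit1bl1, Ifit3b), and the labels do not say how reads that match several genes were counted.

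OAS enzymes make short oligoadenylates that switch on the RNA-cutting enzyme RNase L, and Eif2ak2 encodes PKR, a kinase that halts translation when it binds double-stranded RNA. All 6 genes of this class were at least 2-fold lower in the intestine of the DHEA library. Oas2 was at 8.39 and 2.49 FPKM, 3.37-fold lower (2.81 to 4.07). Oasl1, which restrains translation of Irf7, was at 64.0 and 23.9 FPKM, 2.68-fold lower (2.48 to 2.90). Oasl2 was at 61.2 and 23.2 FPKM, 2.64-fold lower (2.51 to 2.78). Oas3 (2.36-fold), Oas1a (2.18-fold) and Eif2ak2 (2.17-fold) were lower as well. With each library scaled to the same FPKM sum, Oas2 no longer met the minimum level (log2 ratio -1.28), Eif2ak2 was at -0.98, and Ifi44 was under the minimum level too. Oas1a shares near-identical sequence with Oas1g, so its value is uncertain in the same way.

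Of the restriction factors of membranes, Rsad2 encodes viperin, an enzyme that makes a chain-terminating nucleotide. Rsad2 was at 14.3 and 5.13 FPKM in intestine, 2.79-fold lower (2.44 to 3.18). Bst2 encodes tetherin, which holds budding virus at the cell surface, and was at 142 and 59.2 FPKM, 2.40-fold lower (2.20 to 2.62). Rtp4, a negative regulator of the response, was 2.24-fold lower (44.2 against 19.7 FPKM). Ifitm3, which blocks virus entry from endosomes, stood apart from these with 47.3 and 60.5 FPKM, 1.28-fold higher (1.13 to 1.45).

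Among sensors, Zbp1, which detects Z-form nucleic acid, was at 34.0 and 14.1 FPKM in intestine, 2.42-fold lower. Ifih1 (MDA5) and Dhx58 (LGP2), sensors of double-stranded RNA, were at 7.65 and 3.46 FPKM and at 7.66 and 4.39 FPKM, short of a 2-fold difference on the log2(FPKM + 1) scale. Their ratios were nevertheless the lowest of the 10 tissues. Irf7, the factor that amplifies interferon production, was at 64.0 and 27.3 FPKM, 2.34-fold lower. The ISGF3 genes Stat2 and Irf9 did not reach 2-fold, Stat2 at 17.3 and 9.44 FPKM (1.84-fold lower) and Irf9 at 13.1 and 12.4 FPKM (1.06-fold lower, interval 0.965 to 1.16).

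Of the remaining genes, Ifi44, a cytoplasmic interferon-induced protein, was at 8.55 and 2.77 FPKM, 3.09-fold lower (2.66 to 3.595). Xaf1 (1.95-fold), Parp14 (1.87-fold) and Ifi35 (1.58-fold) were lower without reaching 2-fold. Ifi27 was 1.11-fold higher (36.7 and 40.6 FPKM). Of the GTPases, 1 of 5 reached 5 FPKM: Gbp2 at 7.86 and 8.55 FPKM (1.09-fold higher, 0.921 to 1.28). Mx1, known for its action against influenza virus, was at 1.20 FPKM in both libraries, while Mx2, Gbp7 and Gbp3 were lower at levels under 5 FPKM (4.55 and 1.52, 4.45 and 1.67, 5.77 and 3.46 FPKM).

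**Figure D2:**
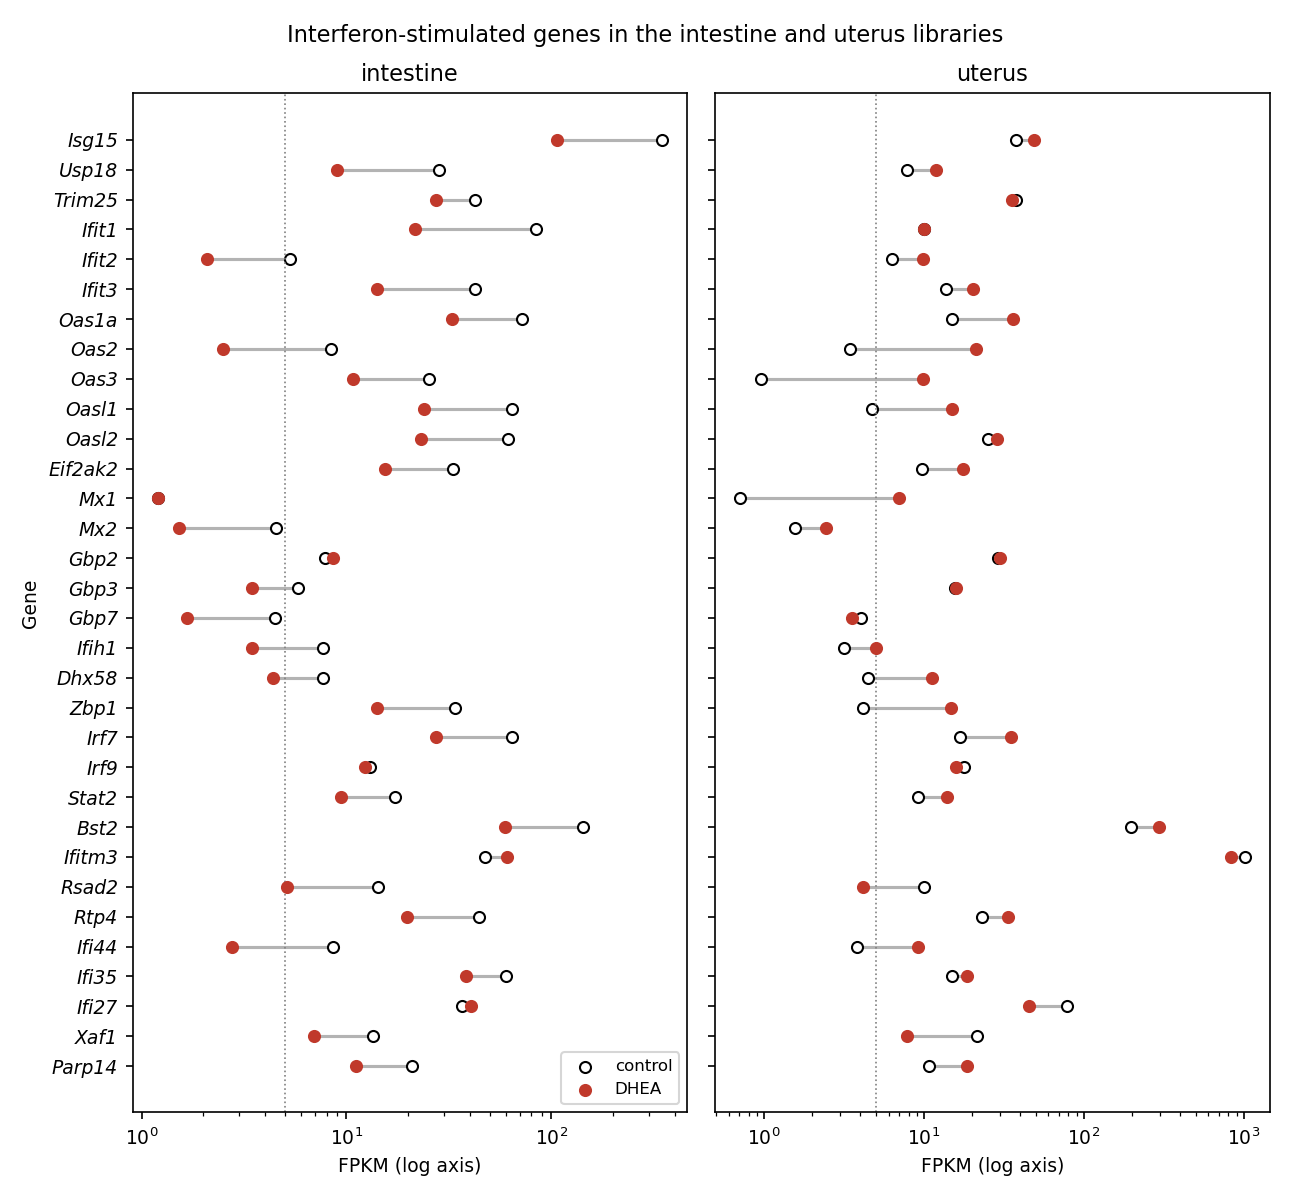
FPKM on a log axis for each of the 32 genes in the control library (open circle) and DHEA library (red circle) of intestine (left) and uterus (right), 1 library per circle, with a dotted line at 5 FPKM. In intestine 29 of 32 red circles lie left of the open circle, and in uterus 25 of 32 lie right of it.

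Cell type markers also differed between the 2 intestine libraries. B cell markers summed to 6.51 FPKM in control and 432 FPKM in DHEA, with 7 of 7 at 5 FPKM or more higher, and Fcer2a was at 0 in control. Markers of goblet, Paneth and crypt cells summed to 1812 and 711 FPKM, with 6 of 9 lower and 1 higher. Mature enterocyte markers summed to 20506 and 15940 FPKM, with 1 of 12 lower and a median log2 ratio of -0.46. T and NK cell markers summed to 297 and 127 FPKM, with 4 of 9 lower (Cd8a, Gzma, Gzmb, Nkg7), 3 higher (Cd2, Cd4, Lck) and Ncr1 at 0 in both. Macrophage markers summed to 127 and 558 FPKM, with 2 of 6 higher. Plasmacytoid dendritic cell markers, of the cell type known as the main source of type I interferon, summed to 4.69 and 53.1 FPKM, of which Spib, which B cells also express, made up 3.24 and 49.6 FPKM. The part of these cell types in the interferon gene result was not tested.

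In the uterus, the direction was mostly opposite and the size varied more between genes. Of 28 genes at 5 FPKM or more, 8 were higher and 2 were lower in the DHEA library. Of all 7965 genes at that level, 7.85% were higher and 10.1% were lower. The median log2 ratio was 0.53, against -0.12 for all genes. Of the 32 ratios 25 were positive, against 5327 of 12836 among all genes. The 8 higher folds ran from 2.09 to 10.2. The summed level was 1649 and 1685 FPKM, of which Ifitm3 alone made up 1010 and 836 FPKM.

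The OAS genes led the higher group. Oas3 was at 0.962 FPKM in control and 9.80 FPKM in DHEA, 10.2-fold higher (8.38 to 12.5; 109 against 1418 reads). Over the 10 control libraries Oas3 ran from 0.0271 FPKM in brain through a median of 0.731 to 25.2 in intestine, and over the DHEA libraries from 0.0255 through 1.38 to 13.97 in spleen. Oas2 was at 3.45 and 21.3 FPKM, 6.17-fold higher (5.40 to 7.07), and the uterus DHEA library was the highest of all 20 for it. Oasl1 was at 4.73 and 15.0 FPKM, 3.17-fold higher (2.71 to 3.72), and Oas1a at 14.95 and 36.2 FPKM, 2.42-fold higher (2.18 to 2.70). Eif2ak2 (1.78-fold) and Oasl2 (1.14-fold) were higher without reaching 2-fold, so 4 of the 6 genes of the class were called in uterus.

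Among the sensors, Zbp1 was at 4.17 and 14.7 FPKM in uterus, 3.52-fold higher (3.05 to 4.07), and Dhx58 at 4.48 and 11.3 FPKM, 2.52-fold higher (2.17 to 2.93). Ifih1 was at 3.18 and 5.04 FPKM. Irf7 was at 16.7 and 35.0 FPKM, 2.09-fold higher (1.95 to 2.25), Stat2 was 1.504-fold higher and Irf9 1.13-fold lower (17.9 and 15.8 FPKM). Ifi44 was at 3.83 and 9.11 FPKM, 2.38-fold higher (2.12 to 2.68). Mx1 was at 0.708 and 7.01 FPKM (43 against 543 reads), 9.89-fold higher (7.25 to 13.8), but its pair mean lay under 5 FPKM, so it is not among the 8. None of Isg15, Ifit1, Ifit3 and Usp18, each at least 2-fold lower in intestine, reached 2-fold in uterus: Isg15 was at 37.8 and 48.7 FPKM, Ifit1 at 9.98 and 10.1 FPKM, Ifit3 at 13.7 and 20.2 FPKM, and Usp18 at 7.80 and 11.9 FPKM.

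The 2 genes at least 2-fold lower in uterus were Xaf1 and Rsad2. Xaf1, whose product promotes cell death by binding the inhibitor XIAP, was at 21.3 and 7.87 FPKM, 2.71-fold lower (2.49 to 2.96). The uterus control library was the highest of the 20 for Xaf1. Rsad2 was at 10.0 and 4.15 FPKM, 2.41-fold lower (2.12 to 2.75). Its log2 ratio of -1.10 was -0.91 with each library scaled to the same FPKM sum, short of 2-fold. Of the other genes with negative ratios, Ifi27 was 1.74-fold lower (78.4 and 45.1 FPKM), Ifitm3 1.21-fold lower, and Trim25, Gbp7 and Irf9 lay within 1.14-fold of control.

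Composition differed in the uterus pair as well. Macrophage markers summed to 362 and 1003 FPKM, with 10 of 11 higher. Endothelial markers had 7 of 10 lower (301 and 115 FPKM), and adipocyte markers 7 of 7 lower (1326 and 193 FPKM). Uterine epithelial markers summed to 1276 and 1288 FPKM, with 4 of 9 lower and 1 higher, and stroma and muscle markers had 4 of 9 higher and 3 lower. B cell markers stayed low (1.45 and 5.14 FPKM), and T and NK cell markers had 2 of 2 lower, Gzmb and Nkg7 (42.3 and 12.7 FPKM over the list). The 13 mitochondrially encoded genes were all lower, 44649 and 11394 FPKM in sum. The part of these differences in the interferon gene result was not tested. The labels give no oestrous stage, so stage and DHEA cannot be told apart here.

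**Figure D3:**
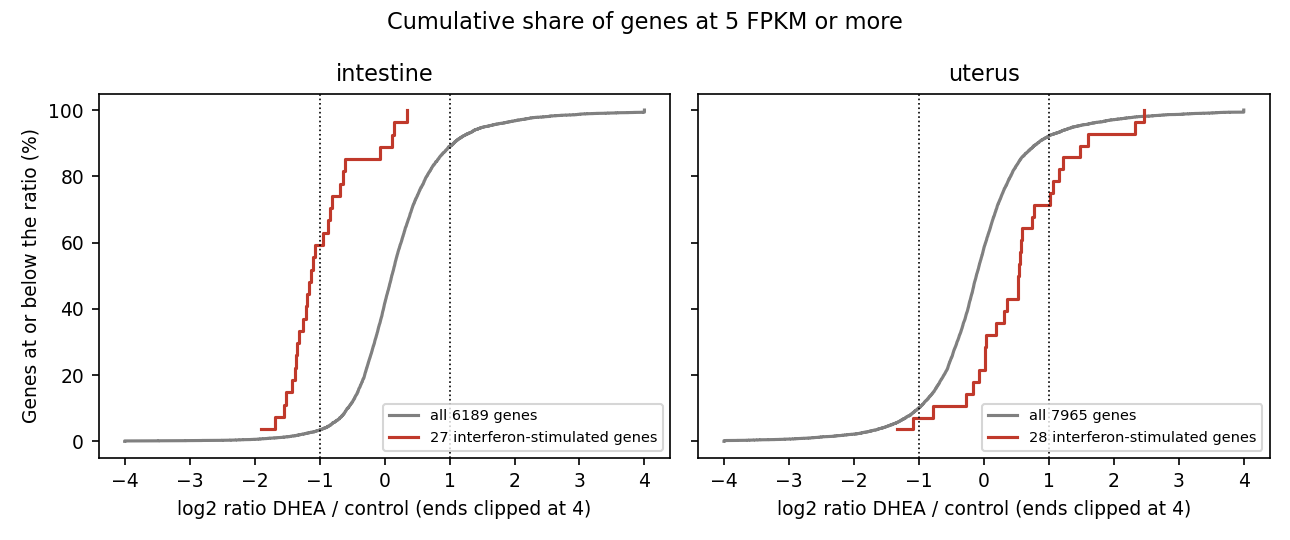
Cumulative share of genes (vertical axis, percent) at or below each log2 ratio of DHEA to control (horizontal axis), for all genes at 5 FPKM or more (grey) and for the interferon-stimulated genes among them (red), in intestine and uterus. The red curve lies left of the grey one in intestine, where 16 of 27 genes are past the dotted line at -1, and right of it over most of its length in uterus, where 8 of 28 are past 1.

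Set side by side, 24 of the 32 genes were lower in the intestine DHEA library and higher in the uterus DHEA library, against 13.3% of the 10301 genes at 1 FPKM or more in both tissues. At 2-fold and 5 FPKM, 7 genes were lower in intestine and higher in uterus, which is 7 of 16 intestinal and 7 of 8 uterine genes: Oas1a, Oas2, Oas3, Oasl1, Zbp1, Irf7 and Ifi44. Of the 5098 genes at 5 FPKM or more in both tissues, 32 (0.628%) did so, which is 35.2% of the 91 lower in intestine and 10.4% of the 307 higher in uterus. Rsad2 was lower in both. The intestine ratio was the lowest of the 10 tissues for 23 of 32 genes, against 7.38% of all genes, and the highest for 0, against 30.7%. The uterus ratio was the highest for 19 of 32, against 12.5%, and the lowest for 2, Ifi27 and Xaf1, against 27.3%.

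For intestine and uterus, limma on the 10 log2 ratios tested whether the ratio differed from that of the other 9 tissues. No other tissue was tested in this way. Benjamini-Hochberg adjustment ran over 14833 genes and does not cover the choice of these tissues. The test assumes that the lone ratio varies like the other 9, and tissues may share animals. For intestine the other 9 include uterus, and for uterus they include intestine. Most of the 32 genes had opposite signs in these tissues, which enters both the difference and its spread. In uterus, 5 of the 32 genes passed at an adjusted p of 0.05, all higher, against 2.82% of all genes higher and 4.21% lower. Mx1 differed by 2.21 on the log2 scale (SE 0.376, adjusted p = 0.00474) and Oas2 by 2.63 (SE 0.506, adjusted p = 0.00964). Zbp1 differed by 1.92 (adjusted p = 0.0198), Dhx58 by 1.34 (adjusted p = 0.0290) and Oas3 by 2.48 (adjusted p = 0.0321). With a pseudocount of 0.1 FPKM, Oas3 and Dhx58 no longer passed (limma adjusted p = 0.0581 and 0.0805), and without the minimum mean Oas3 did not (0.0551). Xaf1 differed by -1.14 and did not pass (limma adjusted p = 0.0554). Of all 32 genes, 28 had a positive difference, with a median of 0.83 against -0.12 for all genes.

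In intestine, 0 of 32 genes passed the same limma test, with 6.80% of all genes passing as higher and 0.748% as lower. Unadjusted p-values of this test are not read here, since their share over all genes was not computed. The largest differences were those of Isg15 (-1.65), Oasl1 (-1.56), Oas3 (-1.55), Oas2 (-1.54), Usp18 (-1.50, SE 0.407) and Ifit1 (-1.49). Ifi44 differed by -1.39, Oasl2 by -1.33 and Mx2 by -1.04. The median difference was -0.97 against 0.20 for all genes, and 28 of 32 were negative. A difference shared by the tissues was not detected: in limma with tissue as a block, 0 of 32 genes passed, and 0 of all 14833. Unadjusted p-values of the shared limma test are not read either, for the same reason. Its smallest adjusted p among the 32 genes was 0.659. The shared estimate was negative for 27 of the 32 genes, with a median of -0.18 against 0.01 for all genes.

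Elsewhere, few of the genes reached 2-fold. In spleen, 2 of 27 were higher, against 5.73% of 7882 genes, and 0 were lower, against 0.939%. Rsad2 was at 17.2 and 92.9 FPKM there, 5.39-fold higher (5.08 to 5.73), which made the spleen DHEA library the highest of all 20 for it. Its ratio was negative in 7 tissues, of which intestine and uterus were called lower. Isg15 in spleen was at 56.9 and 128 FPKM, 2.26-fold higher (2.06 to 2.47). The other spleen genes did not follow, since the median log2 ratio of the 32 was -0.01, with 16 positive and 16 negative. In the same spleen libraries neutrophil markers were 8 of 8 higher (185 and 1306 FPKM), macrophage markers 10 of 12 higher, and mitochondrially encoded genes 12 of 12 lower. Their part in the Rsad2 and Isg15 values was not tested.

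In liver, Ifit3 was the 1 gene of 14 that was lower, against 2.31% of 4850 genes, at 22.3 and 7.93 FPKM, 2.81-fold lower (2.41 to 3.29). Other liver values that were lower lay at a pair mean under 5 FPKM: Ifit1 at 4.34 and 1.01, Gbp3 at 3.76 and 0.785, Gbp2 at 5.37 and 1.53, Rsad2 at 7.01 and 2.85 FPKM. The liver median was nonetheless -0.09, with 12 genes positive and 14 negative. None of the genes higher in liver reached 2-fold, against 1.65% of all genes.

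In the other 6 tissues 0 of the 32 genes were called in either direction. The genes at 5 FPKM or more numbered 16 in ovary, 9 in kidney, 18 in thymus, 23 in lung, 10 in heart and 3 in brain. Of all genes, 1.98% were higher and 2.63% lower in ovary, and 1.12% and 0.515% in kidney. Thymus had 1.18% and 0.142%, lung 0.796% and 0.872%, heart 0.480% and 0.338%, and brain 5.37% and 5.67%. In ovary, 26 of 30 ratios were positive with a median of 0.17, against 7284 of 13053 and 0.037 among all genes. Kidney had 23 of 25 negative with a median of -0.40, against 7779 of 11646 and -0.088 among all genes. Brain had 15 of 15 negative with a median of -0.68, at low levels, against 7142 of 12427 and -0.075 among all genes. Of the brain genes, Stat2 was at 8.37 and 3.73 FPKM (2.24-fold lower) and Ifit3 at 6.96 and 2.41 FPKM (2.89-fold lower, pair mean under 5). Medians in thymus, lung and heart were -0.23, -0.08 and -0.16, against 0.073, -0.004 and 0.025 for all genes. Over all tissues, 18 of the 32 genes were called at least once and 14 never.

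In the control libraries, the median level of the genes was highest in intestine and next in spleen, and in the DHEA libraries in uterus and next in spleen. All 32 genes differed among tissues in the limma F test, as did 98.9% of all genes. Of the 10 control libraries, intestine was the highest for 17 of 32 genes, against 7.26% of all genes, and spleen for 8, against 11.2%. In the DHEA libraries, uterus was the highest for 13, against 5.77%, spleen for 8, against 10.2%, and intestine for 3, against 6.39%. The median of the 32 genes was 26.8 FPKM in control intestine and 11.8 in DHEA intestine. It was 10.4 and 15.9 in uterus, 17.0 and 13.6 in spleen, and 1.19 and 0.569 in brain, the lowest tissue. The control medians of intestine and brain were thus the highest and the lowest of the 10 tissues.

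**Figure D4:**
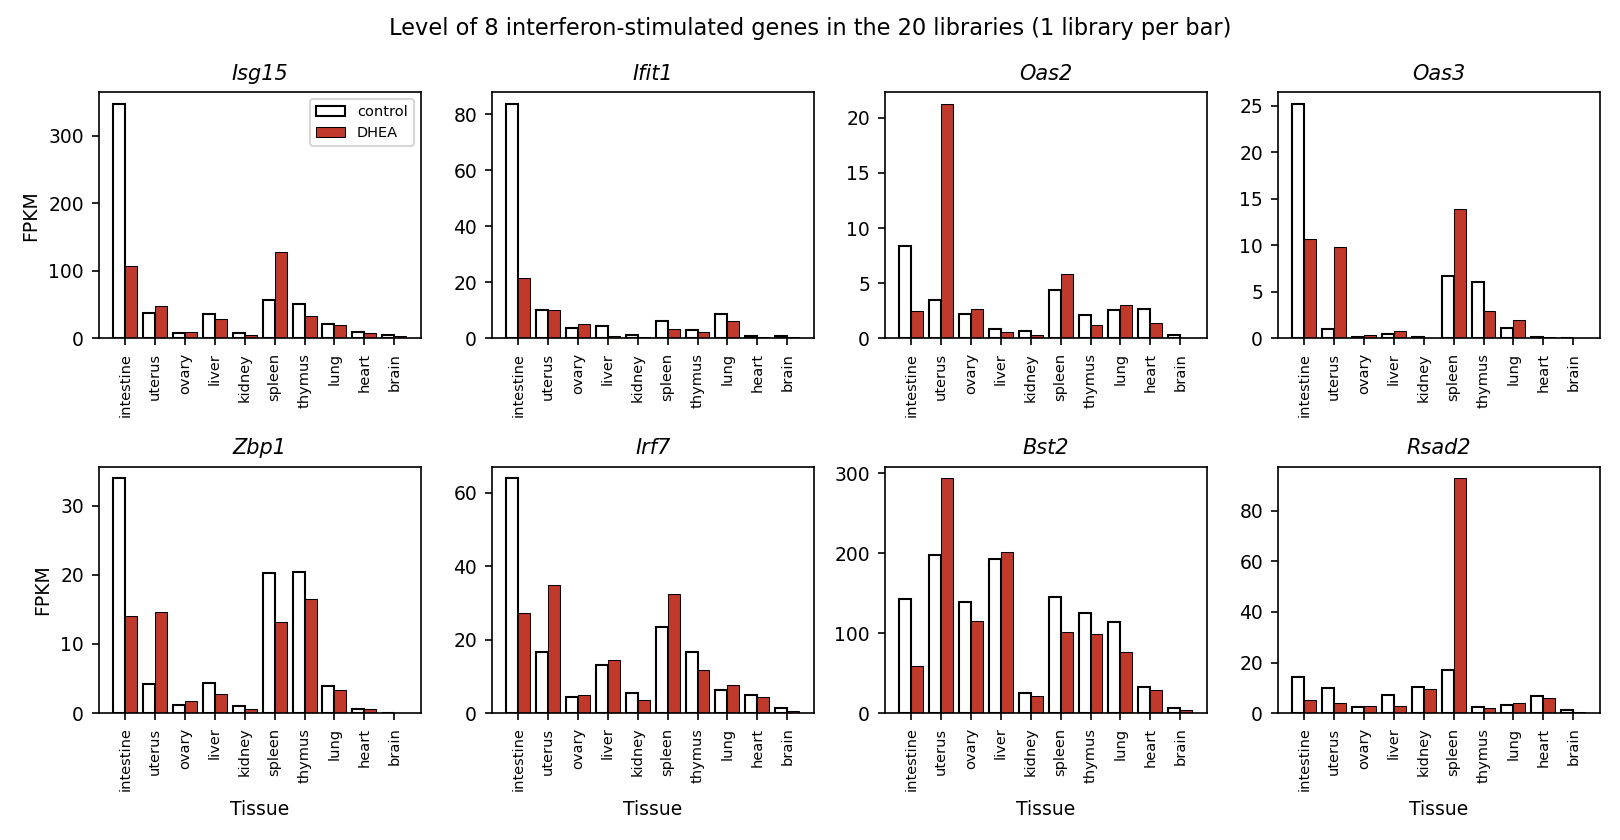
FPKM (vertical axis, from 0) in the 20 libraries for 8 of the genes, chosen after their values were seen, with control open and DHEA red and 1 library per bar. The intestine control bar is the highest for Isg15 (348 FPKM) and Ifit1 (83.7 FPKM), the uterus DHEA bar for Oas2 (21.3 FPKM), and the spleen DHEA bar for Rsad2 (92.9 FPKM).

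Of 21 interferon genes listed, 10 were in the table, and 7 of the 10 held no reads in either intestine library, as did 7 in uterus. Ifne, an interferon known from the epithelium of the female reproductive tract and from control by sex steroids, was at 2.35 FPKM in control uterus and 17.5 FPKM in DHEA uterus, 7.46-fold higher (4.93 to 11.8; 25 against 238 reads). In intestine Ifne was at 0 in both libraries. The type III interferons Ifnl2 and Ifnl3 had 3 and 4 reads in control intestine and 0 in DHEA intestine, too few for a comparison, and Ifnb1 was at 0 in both tissues. Ifng had 1 read in each intestine library, and 8 and 5 reads in uterus.

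None of 5 receptor genes at 5 FPKM or more reached 2-fold in intestine or in uterus. In intestine, Ifnar2 was at 4.62 and 6.10 FPKM, and Ifngr1 (1.20-fold) and Il10rb (1.14-fold) were lower. In uterus, Ifngr2 was at 25.6 and 44.9 FPKM, Ifngr1 at 31.8 and 46.1 FPKM, and Ifnar2 at 15.3 and 11.6 FPKM. Of kinases, brakes and other signalling genes in intestine, 2 of 7 were higher, against 11.0% of all genes. These were the phosphatase Ptpn6 (9.71 and 44.8 FPKM) and Jak1 (9.41 and 20.6 FPKM), with Ptpn11 at 7.95 and 13.1 FPKM. B cell markers were higher in the same pair, and their part in these values was not tested. In uterus 1 of 9 was higher, against 7.85% of all genes. It was Socs3, an inhibitor of cytokine signalling (5.13 and 11.6 FPKM), with Ptpn6 at 7.41 and 12.5 and Pias1 at 9.40 and 6.16 FPKM.

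Of the sensors and factors that induce interferon, 1 of 11 was higher in each tissue and 0 were lower. Of all genes, 11.0% were higher and 3.38% lower in intestine, and 7.85% and 10.1% in uterus. In intestine the higher gene was Irf5 (2.28 and 12.4 FPKM), with Irf8 at 12.2 and 21.8 and Tlr3 at 9.11 and 5.52 FPKM. The part of the higher B cell markers in these intestine values was not tested. In uterus the higher gene was Sting1, the adaptor of cytosolic DNA sensing (14.5 and 42.5 FPKM), with Rigi at 23.8 and 14.2 and Myd88 at 25.6 and 17.2 FPKM.

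A further 63 interferon-stimulated genes were read as a separate list. In intestine, 9 of 39 at 5 FPKM or more were lower and 2 higher, against 3.38% and 11.0% of all genes. The median log2 ratio was -0.29. Ifit1bl1 was at 136 and 41.9 FPKM, 3.25-fold lower, and Ddx60, a helicase, at 22.0 and 6.56 FPKM. The 2 higher genes were Phf11b (1.36 and 10.3 FPKM) and Ifi27l2a (22.2 and 76.0 FPKM). In uterus, 12 of 42 were higher and 1 lower, against 7.85% and 10.1% of all genes, with a median of 0.54. Samd9l, which restrains translation, was 7.40-fold higher (2.87 and 21.2 FPKM), Ly6a 4.47-fold (94.1 and 421 FPKM) and Ifi207 6.15-fold (1.55 and 9.52 FPKM), while Ifitm1 was lower (440 and 117 FPKM).

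Of the genes known to respond chiefly to interferon gamma, 2 of 5 at 5 FPKM or more were lower in intestine, the GTPases Igtp (110 and 46.3 FPKM) and Irgm2 (34.1 and 15.8 FPKM), and 1 was higher, Ciita, the activator of MHC class II genes, which B cells also express (2.43 and 9.68 FPKM). Their median log2 ratio was -0.12, and of all genes in intestine 3.38% were lower and 11.0% higher. In uterus 0 of 5 reached 2-fold, with Gbp9 at 6.29 and 8.43, Irgm1 at 14.8 and 19.0 and Igtp at 21.0 and 17.6 FPKM, and a median of -0.13. In liver 2 of 5 were lower, against 2.31% of all genes: Iigp1 (31.2 and 12.2 FPKM) and Cxcl9 (8.70 and 2.23 FPKM).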

How the data were processed

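Bulk RNA-seq was measured in 20 libraries, 1 per tissue and treatment. The authors deposited FPKM values, with columns whose letters give the treatment and tissue. HISAT2 2.0.5 and the builds hg38 and mm39 are named, per the submitters' processing notes. The counting tool, annotation and strand setting: not given in the sources used here. The authors' table of log2 fold values was not used here.

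For 24826 of 24826 rows, FPKM values were multiples of a per-read value (relative tolerance 1e-11), which gave reads and counting intervals. The 28 repeated symbols (57 rows) were left out. Ratios used a pseudocount of 1 FPKM, calls a pair mean of 5 FPKM, and list medians a pair mean of 1 FPKM. limma 3.58.1 (R 4.3.3) was run on log2(FPKM + 1) in the 14833 genes whose mean reached 1 FPKM, with Benjamini-Hochberg adjustment. A prior run on simulated counts gave unchanged genes the same expected level in both libraries of a tissue. That run therefore does not check the assumption that a lone ratio varies like the others. Where nothing says that libraries came from separate animals, the limma p-values measure the spread between these libraries only. Python 3.11.15, numpy 2.4.6, pandas 2.3.3 and scipy 1.17.1 were used.

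The genes and lists were chosen with earlier results of these data known. Named in full were up to 10 called genes in intestine and in uterus, up to 3 elsewhere, and 3 per pathway list. Others named were chosen after their values were seen. Promoters came from RefSeq (GRCm38.p6), and printed windows avoid exons annotated in that build. The gene shown without the motif is the one whose intestinal log2 ratio was smallest in absolute size among those whose window holds no exon. Protein sequences were not used here. Alternatives were another pseudocount, centring, rescaling, no minimum, and leaving out each tissue.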

Additional observations from a re-analysis of the deposited data

Results flagged for a closer look

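Of the interferon-stimulated genes, 5 had a ratio of DHEA to control in uterus that differed from the other 9 tissues in limma with Benjamini-Hochberg adjustment over all genes. On the log2 scale, Mx1 differed by 2.21, Oas2 by 2.63, Zbp1 by 1.92, Dhx58 by 1.34 and Oas3 by 2.48. Oas3 and Dhx58 did not pass with a pseudocount of 0.1 FPKM, nor Oas3 without the minimum mean. Each rests on 1 uterus library per treatment, and only uterus and intestine were tested in this way.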

How the results depend on the processing

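The FPKM scale and the single library per group limit every value. No pairing by replicate number could be made within a tissue, since each group has 1 library, and the limma fits pair control and DHEA by tissue. Centring on the median of all genes moved the intestine median to -1.30 and left 1 uterus gene lower. With the same FPKM sum per library, the uterus median was 0.76 (all genes 0.08), 1 uterus gene and 2 brain genes were lower, and the lung median turned to 0.13 as that of all lung genes went to 0.19. Without a minimum level, 5 liver genes and 1 brain gene were lower, and a pseudocount of 0.1 FPKM also left 1 brain gene lower. The same scaling with mitochondrial genes and the 20 most abundant ones left out, chosen after seeing the data, left 1 brain gene lower. In limma, centring gave 1 gene differing in intestine (Usp18, adjusted p = 0.0461), and a pseudocount of 0.1 FPKM gave 3 in uterus and no minimum mean 4, without Oas3 (adjusted p = 0.0551). The limma test of a shared difference called 0 of the genes with any of the 10 tissues left out. Of the 16 intestine genes, 13 to 16 remained under the 5 alternatives of scaling, pseudocount and minimum, and of the 10 uterus genes 9 or 10 remained. Apart from rescaling, which changes the denominators, the causes were not tested. The single-gene check covered pairs already called and a few limma differences, so it could count few gains. Of its values, 161 stayed on their side of the threshold, 11 lost it, 1 gained it and 0 turned direction. Over the whole list, 20 genes were lower in intestine on centring, 19 without a minimum and 17 with a pseudocount of 0.1 FPKM, against 16. With the same FPKM sum per library there were 13.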
